A study of Homo sapiens with 40 samples.

Results

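The boundaries of topologically associating domains (TADs) that were listed in SETDB1 knockout (KO) A549 cells and had no counterpart in control cells were examined. A TAD is a stretch of chromosome whose parts contact each other in Hi-C more often than they contact the neighbouring stretches, and a boundary is the start or end of such a stretch. The members were chosen by position alone. Every unique start and end in the KO list was kept when no start or end of the control list on the same chromosome lay within 20 kb, which is the step of the grid on which both lists were drawn. This left 536 KO-only boundaries of 7205 KO boundaries (7.44%, 95% Wilson interval 6.86 to 8.07). The opposite rule left 387 control-only boundaries of 7011 (5.52%, 5.01 to 6.08). The lists held 6283 TADs in KO and 6118 in control cells.

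All 40 samples came from A549, an established lung adenocarcinoma line that carries K-RAS G12S. The control group is labelled only as control, and the labels do not say whether it received Cas9 or a guide. In the KO group SETDB1 was disrupted with CRISPR/Cas9 and guides cloned into PX458, and whether the KO cells are a single clone is not given. The boundaries rest on Hi-C with 2 libraries per genotype, listed as 1 set of TADs per genotype. They were compared with ChIP-seq of CTCF, H3K9me3, H3K27me3, H3K27ac and H3K4me3 with 2 libraries per mark and genotype and 1 deposited peak list each, and with RNA-seq with 3 libraries per genotype. The depth of the Hi-C and ChIP-seq libraries is not given in the sources used here. Shares taken from TAD and peak lists have no replicate error, and their Wilson intervals cover counting error only. Positions are on hg19, and a boundary at position p lies between bases p and p + 1.

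Boundaries in mammalian cells are known to form mainly where cohesin, a ring that extrudes loops of chromatin, is stopped by CTCF bound to its motif. Active promoters and edges between active and silent chromatin are other known places of insulation. SETDB1 is a methyltransferase that places H3K9me3, the mark of constitutive heterochromatin, over repeats and over clusters of KRAB zinc finger genes. H3K27me3 is the mark of Polycomb silencing, H3K4me3 marks promoters, and H3K27ac marks active promoters and enhancers. Compartments A and B, read from Hi-C at a coarser scale than TADs, are the gene-rich active and the silent parts of the nucleus.

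The KO-only boundaries were of 2 kinds by their distance to the nearest control boundary. The median distance was 120 kb, with quartiles of 40 and 445 kb and a maximum of 2620 kb. Just inside the threshold, 166 boundaries lay at 40 kb and 55 at 60 kb, while 1200 KO boundaries lay just outside it at 20 kb and 5469 matched a control boundary exactly. The other 315 lay at 80 kb or more, 234 of them at 200 kb or more and 38 at 1 Mb or more. These distances are the values on which the members were selected, and they are given as a description. The split at 80 kb was set after the values were seen, and boundaries on its sides are called near and far here.

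Most near boundaries, 151 of 221, had a control-only boundary within 60 kb. Far boundaries have none (0 of 315) by construction, and there the KO list held a boundary within a stretch that was uninterrupted in the control list. Control-only boundaries were mostly near, 239 of 387, with 67 at 200 kb or more and 6 at 1 Mb or more. The excess of KO-only over control-only boundaries was thus made up by boundaries at 200 kb or more, since the lists were close in number below that distance.

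**Figure D1:**
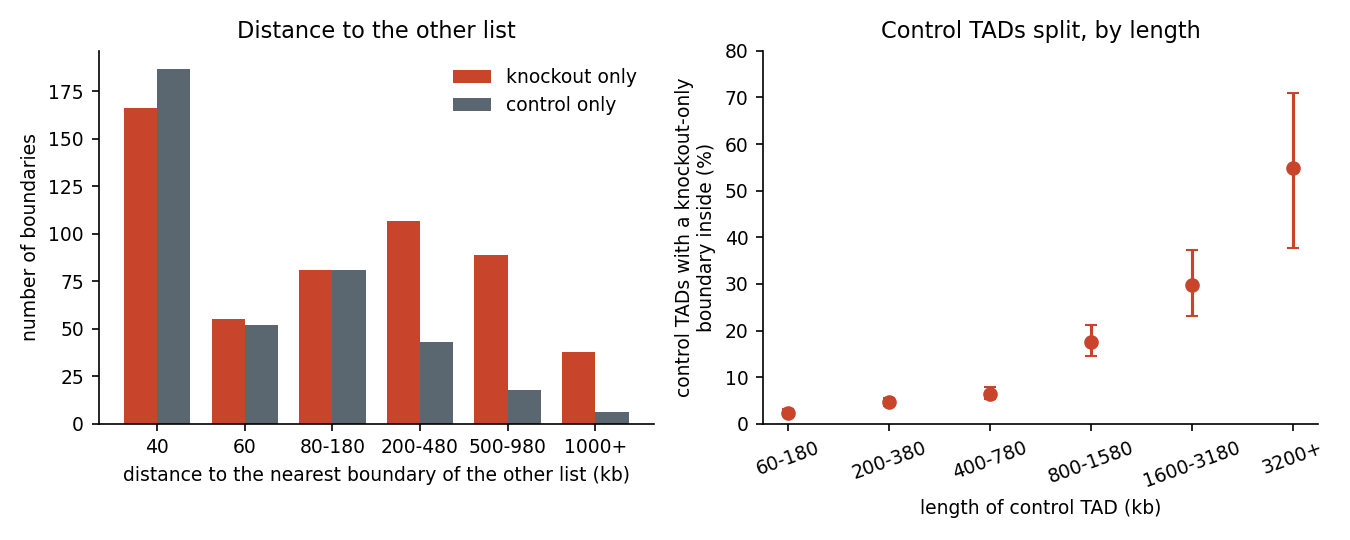
Left, number of KO-only (red) and control-only (grey) boundaries by distance in kb to the nearest boundary of the other list; the classes below 200 kb are close in number and those above it hold 234 KO-only and 67 control-only boundaries. Right, share of control TADs in percent with a KO-only boundary inside, by TAD length in kb, with 95% Wilson intervals; the share goes from 2.27% in the shortest class to 54.8% in the longest.

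Of the 536 boundaries, 508 lay inside a control TAD and 28 in none. They split 393 control TADs, which is 6.42% of all control TADs. A single KO-only boundary lay in 317 of these, 2 in 54 and 3 or more in 22. Split TADs were long, with a median of 540 kb against 300 kb for the unsplit ones. The share of control TADs that were split was 2.27% (1.63 to 3.16) below 200 kb and 6.42% (5.27 to 7.80) from 400 kb to below 800 kb. It was 29.7% (23.2 to 37.3) from 1600 kb to below 3200 kb and 54.8% (37.8 to 70.8) in the 31 TADs of 3200 kb or more.

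Length alone gives a long TAD more places where a boundary can lie. Counted per 100 grid positions more than 20 kb from a control boundary, there were 0.60 KO-only boundaries in the shortest class, 0.29 from 400 kb to below 800 kb and 0.78 in the longest class. The rate was higher at both ends of the length range than in between, and it varied less than the split share. Both edges of the control TAD were kept within 20 kb in 209 of the 393 split TADs (53.2%), against 93.1% of the unsplit ones. Among split TADs this was so for 10 of 34 below 200 kb and 40 of 114 from 200 kb to below 400 kb. It was so for 37 of 47 from 1600 kb to below 3200 kb and 11 of 17 in the longest class. In the short classes a KO-only boundary inside thus went more often with an edge that was not kept. In 160 of those 209 at least 2 KO TADs lay within the old domain, and in 115 exactly 2. The KO-only boundary lay in the central part of its control TAD, when this was cut into 3 equal parts, in 147 of 508 cases (28.9%). This share depends on the distances on which the members were selected, and it was not set beside the background.

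A KO-only boundary was both the end of a KO TAD and the start of the next in 399 cases (74.4%), the same share as among KO boundaries shared with control (74.4%). The others were a start only (74) or an end only (63), next to a stretch assigned to no TAD or within an overlap of neighbouring TADs. KO TADs with at least 1 KO-only edge numbered 821 and had a median length of 360 kb, and the 114 with both edges KO-only had a median of 480 kb. All other KO TADs had a median of 300 kb.

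CTCF lay near more KO-only boundaries in the KO list than in the control list. A control CTCF peak lay within 20 kb of 165 boundaries (30.8%, 27.02 to 34.8) and a KO CTCF peak within 20 kb of 294 (54.9%, 50.6 to 59.0). Shared KO boundaries, the canonical class, had 49.7% and 67.7%. Grid positions more than 20 kb from any control boundary, 113699 in number and used as the background, had 23.2% and 30.3%. The KO list holds more CTCF peaks than the control list, 34474 against 23903, so the change is read beside the background. Whether depth or peak calling has a part in that larger list was not tested.

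By status, 138 boundaries had CTCF in both lists, 156 in the KO list only, 27 in the control list only and 215 in neither. CTCF in the KO list only was thus found at 29.1% (25.4 to 33.1) of KO-only boundaries, beside 15.7% of the background positions and 21.3% of shared KO boundaries. The share was 24.0% (18.8 to 30.0) at near and 32.7% (27.8 to 38.1) at far boundaries. In stretches that were B in control the background barely moved, from 23.7% to 24.9%, while KO-only boundaries there went from 27.8% to 50.5%. Shared KO boundaries in B also went up, from 45.9% to 62.4%. In control A the background went from 22.7% to 35.3%, KO-only boundaries from 36.7% to 63.3% and shared ones from 52.2% to 70.8%. Among far boundaries, CTCF in the KO list only was at 41.8% (31.5 to 52.8) in A and 29.5% (24.0 to 35.8) in B. Background positions at 80 kb or more had 16.1% and 13.8%.

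The profile of CTCF peaks located this gain at far boundaries, but not at near ones. At far boundaries the KO list held 0.41 peaks per boundary in the 20 kb on the left and 0.37 on the right, and the control list 0.18 and 0.23. The flanks out to 500 kb were at similar levels in both lists, so the difference was narrow and centred on the boundary. At near boundaries the KO values were 0.39 and 0.35 and the control values 0.24 and 0.20, on flanks that were also higher in KO. In the steps centred 50 kb to the left and right the KO list held 0.42 and 0.39, so no narrow peak was centred on near boundaries. At shared boundaries both lists peaked at the boundary, with 0.61 and 0.59 in KO and 0.40 and 0.37 in control.

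**Figure D2:**
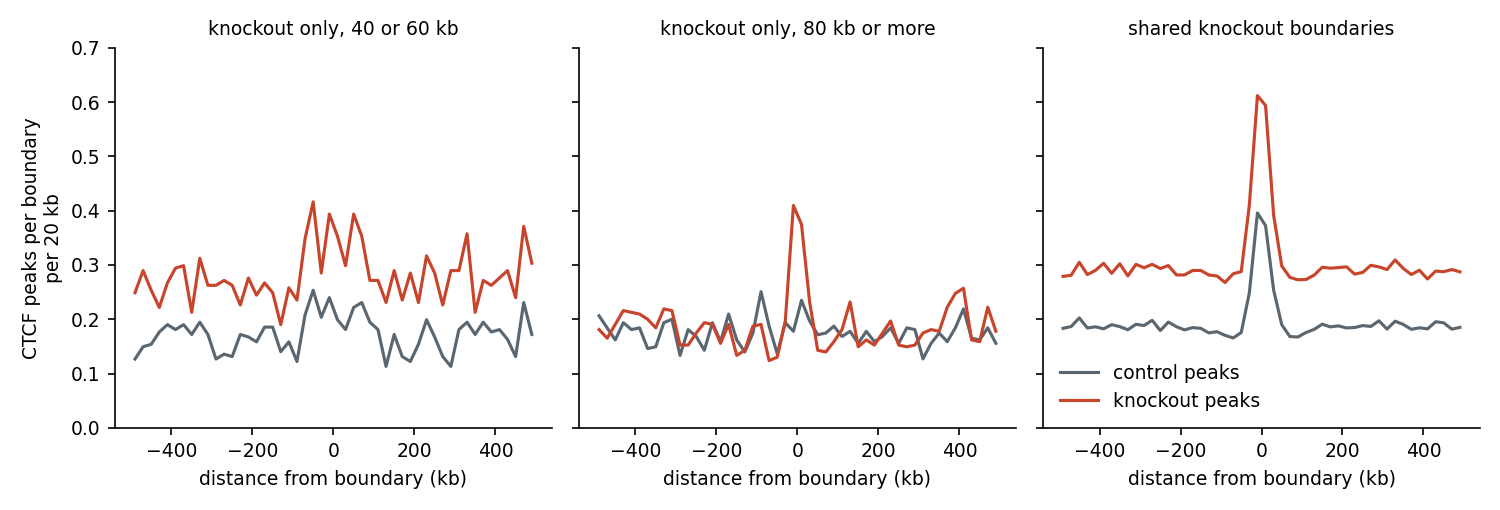
CTCF peaks per boundary in each 20 kb step (vertical axis) against distance from the boundary in kb (horizontal axis, 500 kb each side), for near KO-only (left), far KO-only (middle) and shared KO boundaries (right); grey, control peak list; red, KO peak list. At far boundaries the KO line has a narrow peak of 0.41 at the centre where the control line is at 0.18 to 0.23.

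Many members had no CTCF nearby in the KO list. No KO CTCF peak lay within 20 kb of 242 KO-only boundaries, 27 of which had a control CTCF peak there. Of the 242, 155 (64.0%) had a KO H3K4me3 peak within 20 kb and 87 had neither. Among positions without KO CTCF, the share with KO H3K4me3 was 45.7% in the background and 63.0% at shared boundaries, the latter close to that of KO-only boundaries. In the longest control TAD that was split, the boundary at 67760000 on chromosome 6 had its nearest control CTCF peak 309 kb away and its nearest KO CTCF peak 390 kb away.

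Promoter and Polycomb marks appeared at far boundaries in control compartment B. H3K4me3 peaks were present within 20 kb in the KO list and absent in the control list at 140 KO-only boundaries (26.1%, 22.6 to 30.0), beside 11% of background positions and 6.13% of shared boundaries. H3K27me3 was gained in this way at 105 (19.6%, 16.5 to 23.2; background 6.12%) and H3K27ac at 96 (17.9%, 14.9 to 21.4; background 7.89%). Most of these gains were at the 227 far boundaries that lay in control compartment B. There H3K4me3 was gained at 108 (47.6%, 41.2 to 54.1), H3K27me3 at 82 (36.1%, 30.2 to 42.6) and H3K27ac at 60 (26.4%, 21.1 to 32.5). Background positions of the same kind, in B and at 80 kb or more from a control boundary, had 14.5%, 6.74% and 7.16%. The 79 far boundaries in control A did not stand out in this way. There H3K4me3 was gained at 10.1% (5.22 to 18.7), H3K27me3 at 3.80% (1.30 to 10.6) and H3K27ac at 7.59% (3.53 to 15.6). Background positions in A at 80 kb or more had 8.47%, 5.89% and 8.76%.

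At near boundaries H3K4me3 was gained at 22 of 221 (9.95%, 6.67 to 14.6) and H3K27me3 at 13 (5.88%, 3.47 to 9.80), with the background inside both intervals. H3K27ac was gained at 27 (12.2%, 8.53 to 17.2), above its background of 7.89%. Within compartments the background lay inside the wider intervals. These were 11.6% (7.35 to 17.7) against 8.37% in control A and 12% (5.62 to 23.8) against 7.37% in control B. In 41 of the 536 (7.65%), CTCF and H3K4me3 were gained together, beside 1.52% of background positions and 1.56% of shared boundaries, and in 255 (47.6%, background 25.2%) at least 1 of them was. At far boundaries in B this reached 63.0%, against 26.5% at background positions of the same kind.

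H3K9me3 coverage differed with compartment and distance. Coverage by H3K9me3 peaks within 20 kb of KO-only boundaries was 18.4% in control and 10.6% in KO, while background positions went from 13.0% to 26.1%. Chromosome 19, described further below, held much of this loss, and without its boundaries the values were 15.7% and 11.2%. Far boundaries in B went from 24.96% to 16.5%, or from 19.3% to 17.9% without chromosome 19, beside 16.4% to 55.0% at background positions of the same kind. Coverage thus went up strongly on the background grid in B and not at far KO-only boundaries. The 50 near boundaries in B did go up, from 10.2% to 27.4%, as did shared boundaries in B, from 11.4% to 14.6%. In control A, coverage went down at KO-only boundaries (12.2% to 1.73%) and in the background (10.4% to 2.36%) alike. A control H3K9me3 peak with none left in KO was found at 252 KO-only boundaries (47.0%, 42.8 to 51.3; background 37.7%), and at 86 of the far boundaries in B (37.9% against 15.1%). At shared boundaries, which are poor in this mark, coverage went from 8.42% to 4.24%, and the share with a lost peak was 46.9%, so the loss of a peak by itself did not set KO-only boundaries apart from shared ones.

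The remaining marks gave smaller differences in coverage over all 536 boundaries. H3K27me3 coverage within 20 kb was 10.5% in control and 13.3% in KO, against 13.8% and 10.1% in the background. H3K27ac went from 3.12% to 4.51% (background 3.68% to 4.08%) and H3K4me3 from 3.73% to 5.48% (background 3.22% to 3.77%). Control-only boundaries moved in the same direction as the background. Their H3K9me3 coverage went from 9.17% to 20.5% (background 13.0% to 26.1%) and their H3K27me3 coverage from 16.6% to 11.3%.

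**Figure D3:**
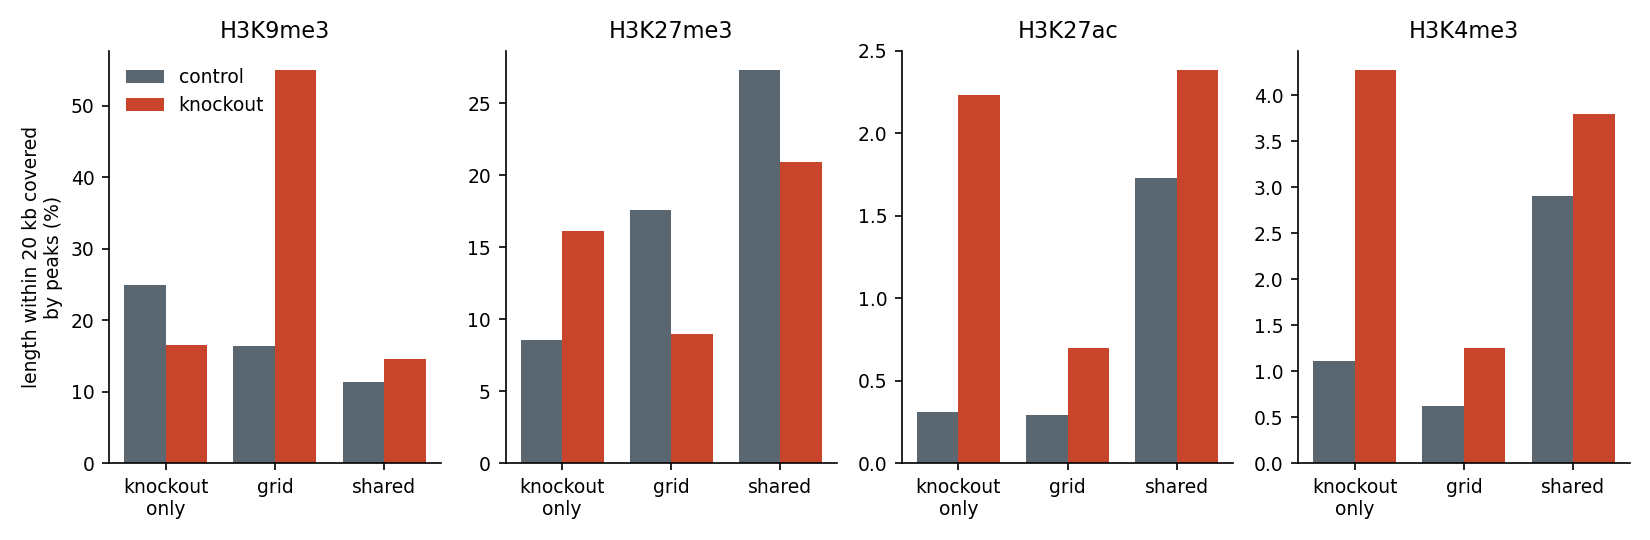
Mean share of the length within 20 kb covered by peaks (percent, vertical axes start at 0 and differ between marks) in control (grey) and KO (red) lists, for far KO-only boundaries in control compartment B (227), background grid positions in B at 80 kb or more from a control boundary, and shared KO boundaries in B (1584). H3K9me3 goes from 24.96% to 16.5% at KO-only boundaries and from 16.4% to 55.0% on the grid.

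Compartment scores are given per 100 kb bin and replicate, with positive values called A and negative values B. They come from the same Hi-C libraries as the TAD lists, so what follows describes the members and is not an independent test of them. Of the 503 KO-only boundaries in a scored bin, 226 (44.9%) were in A in control, against 75.3% of shared KO boundaries and 52.1% of background positions. The median score at KO-only boundaries was −0.14 and −0.16 in the control replicates and 0.04 and 0.05 in the KO replicates. For far boundaries in B it was −0.68 in both control replicates and −0.25 and −0.24 in KO. Near boundaries went the other way, from 0.42 and 0.44 to 0.34 and 0.30.

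The KO-only boundaries touched 576 scored bins. In limma with a Benjamini-Hochberg adjusted p under 0.05 over all 26503 bins, 267 of them (46.4%) were higher in KO and 153 (26.6%) lower, where all bins gave 21.5% higher and 37.3% lower (58.8% in either direction, against 420 or 72.9% here). At far boundaries 231 of 360 bins (64.2%) were higher and 60 lower. At near boundaries 38 of 220 (17.3%) were higher and 94 (42.7%) lower, close to the figures for all bins. Far boundaries in B had 212 of 270 bins higher (78.5%), against 27.2% of the bins of background positions of the same kind. The p-values reflect the spread between libraries labelled as replicates, and nothing says that these came from separate cultures.

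By sign, 93 of the 576 bins (16.1%) went from B to A and 42 (7.29%) from A to B, where all bins gave 5.87% and 5.95%. Counted by boundary, 78 went from B to A, 39 from A to B, 187 stayed in A and 199 stayed in B. Of the 227 far boundaries in B, 155 stayed in B and 72 went to A. Among positions in control B at any distance, 13.0% of the background and 14.1% of shared boundaries went to A. The step in score across the boundary, taken as the absolute difference between the 100 kb flanks, had a median of 0.09 in each control replicate and 0.16 in each KO replicate. Shared boundaries had 0.15 in all replicates. The step was larger in both KO replicates than in both control replicates at 253 of 483 KO-only boundaries with scored flanks (25% of background positions). It was smaller in both at 76, beside 27698 of 111478 background positions. Of 6139 shared boundaries with scored flanks, the step was larger in this way at 2071 and smaller at 1507.

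**Figure D4:**
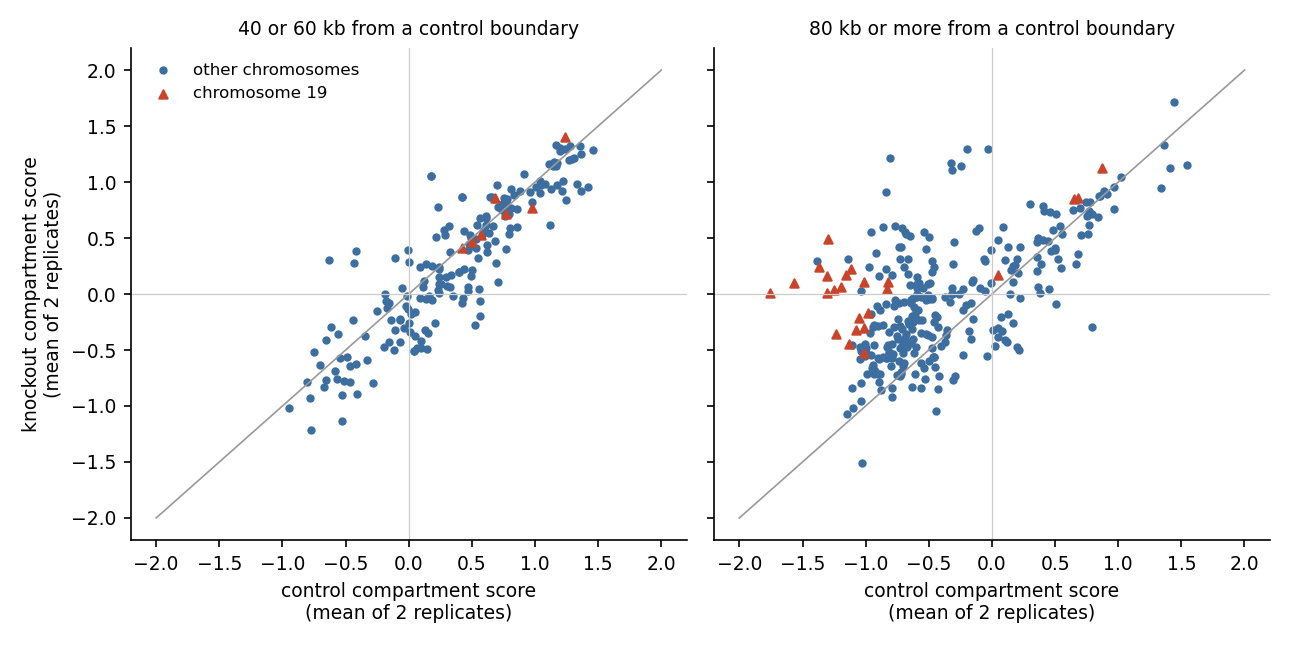
Compartment score of the bin at each KO-only boundary in KO (vertical) against control (horizontal), each the mean of 2 replicates, for near (left) and far (right) boundaries; triangles, chromosome 19; the diagonal marks equal scores. Near boundaries follow the diagonal, and the far boundaries with negative control scores lie mostly above it.

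Some KO-only boundaries lay where an H3K9me3 domain of the KO list ended. Coverage of the 100 kb flanks differed by at least 50 points in KO at 34 boundaries (6.76% of those with a score, against 2.48% of background positions and 3.80% of shared boundaries), 29 of them far, and in control at 2. Of the 34, 31 lay in control B. Within B the share was 11.2% at KO-only boundaries, 13.3% at shared boundaries and 4.80% in the background, so there such edges were not more frequent at KO-only than at shared boundaries. At 20700000 on chromosome 5, 1100 kb from any control boundary, KO coverage was 92.7% on the left and 0% on the right, where control had 25.5% and 0%. At 13240000 on chromosome 17 it was 89.3% and 0% in KO, and 63.8% and 54.8% in control. At 98400000 on chromosome 12 the domain lay on the other side, with 15.98% on the left and 93.1% on the right in KO.

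Long B domains that were split differed from those that were not. Of control TADs of 800 kb or more in B, 120 held a KO-only boundary and 381 did not. Their control scores were alike, with medians of −0.63 in both control replicates of the split and −0.62 and −0.61 of the unsplit TADs. In KO the split TADs had −0.37 and −0.38 and the unsplit ones −0.77 and −0.76. Median H3K9me3 coverage went from 13.1% to 33.0% in split and from 8.65% to 70.7% in unsplit TADs. It was lower in KO than in control in 40 of the 120 split TADs (33.3%) and in 37 of the 381 others (9.71%).

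The density of H3K4me3 peaks in the split TADs went from 5.07 to 19.6 per Mb, beside 5.37 to 7.76 in the unsplit ones. H3K27ac went from 1.83 to 6.67 per Mb, beside 1.88 to 3.03. H3K27me3 already differed in control, with 18.8 peaks per Mb in split and 38.2 in unsplit TADs. In KO these densities were 20.9 and 16.6 per Mb. CTCF density over the whole domain did not follow, at 7.79 and 6.82 per Mb in split and 7.99 and 8.07 in unsplit TADs. Split TADs were also longer, with a median of 1660 kb against 1220 kb, and the part of length in these values was not tested.

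The most divided control domain was on chromosome 2, from 80160001 to 84640000, a B domain of 4480 kb that held 8 KO-only boundaries. In KO its left part lay under H3K9me3 up to the first new boundary at 81460000, whose left flank had 90.3% coverage and whose right flank 32.6%. The remainder was cut into TADs of 100 to 980 kb. The KO TADs from 83800001 to 84060000 and from 84040001 to 84540000 overlapped. The end of the former and the start of the latter are therefore counted as separate boundaries. Over the whole domain H3K9me3 coverage went from 52.1% to 30.0%, while H3K4me3 peaks went from 9 to 150 and H3K27me3 peaks from 18 to 182. CTCF peaks went from 91 to 32, so this domain gained boundaries with fewer CTCF peaks. The mean score went from −0.61 and −0.62 to −0.19 in both KO replicates.

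Within it, the boundary at 82460000, 2180 kb from the nearest control boundary, had 2 KO CTCF peaks and no control CTCF peak within 20 kb. There H3K9me3 coverage went from 79.6% to 0% and H3K27me3 coverage from 0% to 31.8%. The score was −0.56 and −0.63 in control and 0.04 and −0.03 in KO, a difference of 0.60 (SE 0.046, limma adjusted p 1.6e-06). The boundary at 82120000, 1960 kb away from a control boundary, had no CTCF within 20 kb in either list, and H3K4me3 peaks went from 1 to 3. Those at 83800000 and 84060000 also lacked CTCF, and their H3K9me3 coverage went from 24.1% and 30.2% to 0%.

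**Figure D5:**
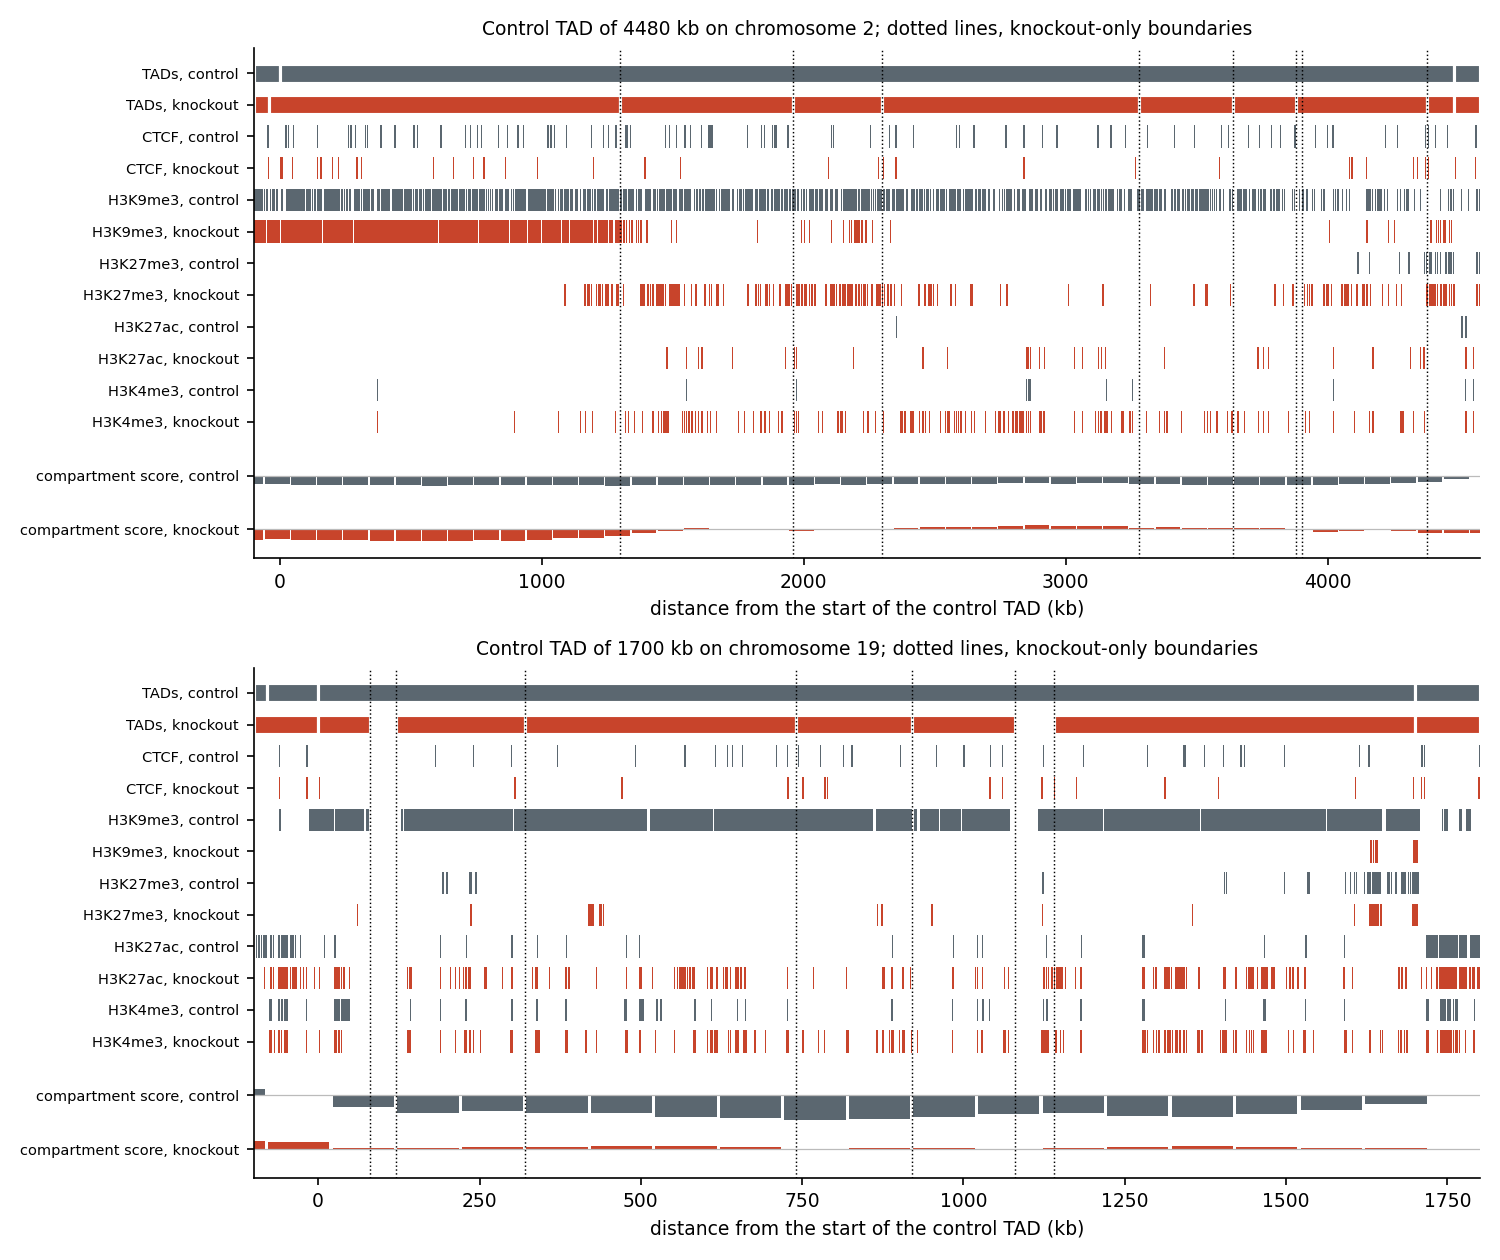
The 2 control TADs with the most KO-only boundaries, on chromosome 2 (8 boundaries) and chromosome 19 (7 boundaries), with TADs, peaks and mean compartment score per bin (bars above the line are A, below it B, on 1 scale in all rows) in control (grey) and KO (red); horizontal axis, distance in kb from the start of the control TAD; dotted lines, KO-only boundaries. On chromosome 2 knockout H3K9me3 coverage drops at the first dotted line without ending there, and on chromosome 19 the control H3K9me3 domain has almost no peak left in KO.

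Chromosome 19 had the highest share of KO-only boundaries, 37 of its 218 KO boundaries (17.0%, 12.6 to 22.5), or 2.19 per 100 background positions against 0.47 over all chromosomes. It is known for its clusters of KRAB zinc finger genes. Within 20 kb of these 37 boundaries, H3K9me3 coverage went from 54.9% to 2.12%, and 13 of the boundaries went from B to A. Background positions of the same chromosome went from 40.7% to 13.2%. The domain from 36680001 to 38380000, 1700 kb long, held 7 KO-only boundaries with both edges kept. Its H3K9me3 coverage went from 92.2% to 0.74%, H3K27ac peaks from 20 to 113, H3K4me3 peaks from 36 to 109 and CTCF peaks from 36 to 17. Its score went from −1.16 and −1.28 to 0.16 and 0.15.

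In the domain from 22180001 to 24460000, cut by 6 KO-only boundaries, H3K9me3 coverage went from 84.9% to 5.47% and H3K27me3 peaks from 1 to 130. Its score stayed negative, at −1.03 and −1.05 in control and −0.28 and −0.29 in KO. H3K27ac peaks went from 6 to 107 and H3K4me3 peaks from 8 to 175, so the 2 domains were alike in these marks and differed in H3K27me3, which went from 27 to 14 peaks in the first. Without chromosome 19, KO CTCF lay near 54.3% of the remaining 499 boundaries, H3K4me3 was gained at 45.9% of the far boundaries in B, and 236 of 539 bins (43.8%) were higher, each close to its value with that chromosome.

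Chromosome 13 (27 of 201, 13.4%), chromosome X (36 of 297, 12.1%), chromosome 4 (54 of 452, 11.9%) and chromosome 5 (44 of 413, 10.7%) followed. Control-only boundaries numbered 11, 34, 20 and 30 on these chromosomes and 18 on chromosome 19. On chromosome X the KO-only and control-only boundaries were thus close in number. At the low end were chromosome 21 with 1 of 80, chromosome 20 with 4 of 202 (1.98%) and chromosome 1 with 20 of 600 (3.33%). On chromosome 5 the domain from 177640001 to 178940000 was cut by 4 KO-only boundaries with both edges kept. There H3K9me3 went from 79.3% to 2.08%, CTCF peaks went up from 12 to 24, and the score went from −0.06 and −0.07 to 1.18 and 1.13. The domain from 18320001 to 21800000 on the same chromosome was cut by 5, with H3K9me3 going from 17.0% to 66.0% and little change in score, from −0.58 and −0.56 to −0.53 and −0.51. On chromosome 3 the domain from 83580001 to 85620000 was cut by 4, with H3K9me3 going from 41.6% to 3.69%, CTCF peaks from 25 to 7 and H3K4me3 peaks from 3 to 83.

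The largest rise in score at a KO-only boundary was at 240000 on chromosome 4, which went from −0.82 and −0.80 to 1.28 and 1.16, a difference of 2.03 (SE 0.048, limma adjusted p 3.3e-09). H3K9me3 coverage within 20 kb went from 81.8% to 0% there, H3K27me3 from 0% to 35.0%, and CTCF peaks from 0 to 1. Next came 3 boundaries on chromosome 19. The boundary at 58520000 went from −1.32 and −1.27 to 0.49 and 0.51, with H3K9me3 coverage from 100% to 0%, H3K27ac from 3.11% to 46.0% and CTCF in both lists. The boundaries at 37420000 and 37600000, both in the 1700 kb domain above, rose by 1.76 and 1.75. The value at 37600000, which lies on a bin edge, is that of the bin on its left. This boundary had a control CTCF peak at 18.6 kb and its nearest KO CTCF peak 119 kb away.

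Among falls, the boundary at 174240000 on chromosome 5 went from 0.80 and 0.78 to −0.33 and −0.26 (limma adjusted p 2.5e-08), with 2 KO CTCF peaks where control had none within 20 kb. H3K27me3 was high there in both lists, at 77.8% and 67.7%, and H3K9me3 coverage went from 63.0% to 5.92%. The boundary at 67500000 on chromosome 18 lies on a bin edge. The bin on its left went from 0.16 and 0.20 to −0.77 and −0.85. This boundary had no CTCF within 20 kb in either list. Its left flank had 57.9% H3K9me3 in KO and its right flank 0%. The boundaries at 17780000 and 75740000 on chromosome 4 fell by 0.80 and by 0.76 and were near ones, each at 40 kb from a control boundary and without CTCF within 20 kb.

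Of the 6 boundaries farthest from any control boundary, 5 had no CTCF of either list within 20 kb, and all 6 had a higher score in KO. The farthest, at 67760000 on chromosome 6, lay in a control TAD of 5800 kb and marked the edge of a KO H3K9me3 domain, with 80.9% coverage on the left and 3.38% on the right. On chromosome 4 the boundary at 63600000 lies on a bin edge in a TAD of 4380 kb. The bin on its right went from −0.65 and −0.66 to 0.28 and 0.35, and the boundary had 1 new H3K4me3 peak. The boundary at 64120000 in the same TAD went from −0.74 and −0.71 to 0.32 and 0.30, with its nearest CTCF peaks over 500 kb away in both lists. At 27020000 on chromosome 5 the score went from −0.60 and −0.58 to −0.14 in both KO replicates, and H3K4me3 peaks went from 1 to 2. The boundary at 106360000 on chromosome 1 had no H3K4me3, H3K27ac, H3K27me3 or CTCF peak within 20 kb in either list, and its score still rose by 0.22 (limma adjusted p 0.0014).

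In the longest control TADs, 6 boundaries with a KO CTCF peak and no control CTCF peak were also named. Besides 82460000 and 83440000 on chromosome 2 these included 175660000 on chromosome 3, where a KO CTCF peak lay 1.12 kb from the boundary and the nearest control peak 181 kb away. Its score went from −0.61 and −0.57 to 0.05 and 0.06. At 26340000 on chromosome 9, H3K27me3 coverage went from 2.37% to 42.9%, and KO H3K9me3 began on the right flank, with 0% on the left and 59.2% on the right. At 61340000 on chromosome 4, H3K9me3 coverage went up from 2.87% to 16.1% as CTCF peaks went from 0 to 1. The boundary at 20960000 on chromosome 5 had no scored bin.

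The targeted transcript and the genes of the boundary machinery were then read from RNA-seq, whose libraries held 18065062 to 48364919 counts. SETDB1 was at 37.4, 39.5 and 38.7 CPM (counts scaled to the size of the library) in control and 23.4, 21.2 and 21.0 CPM in KO libraries. The groups did not overlap (log2 fold change −0.82, SE 0.060, edgeR quasi-likelihood adjusted p 1.7e-12). The transcript was lower but present, and the counts do not show which part of it was edited. The epithelial markers KRT8, KRT18, EPCAM and CDH1 were present in all libraries, EPCAM at a mean of only 4.01 CPM in control. They were higher in KO without overlap, with log2 fold changes of 1.54, 1.73, 1.41 and 0.95. PTPRC, a marker of blood cells, had at most 1 count. The surfactant genes SFTPC and SFTPB of alveolar cells were near 0 in every library. COL1A1 of fibroblasts was at 3.10 CPM in control and 3.83 CPM in KO.

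Of 23 genes for CTCF, cohesin and other boundary proteins, 22 were tested, 5 were higher and 11 lower in KO, where 32.8% of all tested genes were higher and 30% lower. The median of all genes was within 0.034 of 0 on the log2 scale under the 3 scalings tried. CTCF itself was at 89.3, 86.4 and 84.9 CPM in control and 95.6, 96.6 and 94.3 CPM in KO, without overlap, with a log2 fold change of 0.14 and an edgeR adjusted p of 8.7e-03 (SE 0.045). Without control replicate 3 the log2 fold change was 0.12 and the edgeR adjusted p 0.06, so the call was lost while the estimate changed little. Its paralog CTCFL had at most 1 count in any library and was not tested.

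Of the cohesin subunits, 4 of 5 were lower. SMC3, a core subunit of the ring, fell from 177, 164 and 163 CPM to 97.2, 94.4 and 96.3 CPM (−0.81 on the log2 scale, SE 0.045, edgeR adjusted p 3.7e-15). RAD21, which closes the ring, fell by 0.27 on the log2 scale, and SMC1A and STAG2 fell by 0.19 and 0.23. STAG1, the alternative to STAG2, was at mean levels of 54.5 CPM in control and 53.8 CPM in KO and did not pass, nor did the loader NIPBL, at 59.6 and 56.1 CPM. ESCO2, which acetylates SMC3 in S phase, fell by 0.60, and HDAC8, which removes that acetylation, by 0.47. WAPL, the factor that releases cohesin, and its partner PDS5B fell by 0.22 and 0.20.

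The topoisomerase TOP2A, highest in dividing cells, fell by 0.57 on the log2 scale, TOP2B by 0.19 and ADNP by 0.13. MAZ, a zinc finger protein found with CTCF at boundaries, rose by 0.48 on the log2 scale, and MAU2, the partner of NIPBL, by 0.27. CHD4 and PATZ1 rose by 0.19 and 0.15, but neither passed under upper quartile scaling or with DESeq2, where 3 genes of the list were higher. CHD4 also missed the threshold without control replicate 3 or without any 1 KO replicate, PATZ1 without control replicate 1 or 2 or KO replicate 3, and ADNP without KO replicate 2 or 3 or with no expression filter. PDS5A, ESCO1, ZNF143 and YY1 did not pass, although PDS5A and NIPBL were called lower under upper quartile scaling and YY1 higher under scaling by library size only. In RNA from whole cultures, fewer cells of a kind and less RNA per cell cannot be told apart. Whether any of these transcripts bears on the KO-only boundaries was not tested.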

How the data were processed

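TAD lists, peak lists, compartment scores and gene counts were used as deposited; input libraries and signal tracks were not used here. The TAD and peak lists held positions only. The deposited compartment table gave a score per 100 kb bin for each Hi-C replicate, whose method is not given in the sources used here. The authors' gene table held raw counts. Per the submitters' processing notes, the build was hg19 and the tools included STAR 2.6.1c, Bowtie2 2.2.3, SAMtools 1.5, Picard, MACS2 and edgeR 3.30.0; their roles and settings, and whether libraries were pooled for peaks and TADs, are not given in the sources used here. Per the labels' protocols, histone ChIP used MNase and CTCF ChIP sonication, RNA libraries were stranded, and Hi-C used DpnII.

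Peaks counted as present within 20 kb when they overlapped the window by at least 1 bp; coverage is the share of that window under peaks. The background was every 20 kb grid position in a scored bin and more than 20 kb from a control boundary, KO-only positions included; neighbouring positions share peaks. Scores were tested with limma 3.58.1 (2 replicates per genotype), and an exact test on 2 against 2 could not go below 0.33. Counts were tested with edgeR 4.0.16 (TMM, quasi-likelihood, R 4.3.3), genotype as the only term, both with Benjamini-Hochberg adjustment at 0.05; both were tested on simulated data. DESeq2 1.42.0 was an alternative. A boundary on a bin edge was counted with both bins, but a named boundary there is given with the score of a single bin. Positions were handled in Python 3.11.15 with numpy 2.4.6, pandas 2.3.3 and scipy 1.17.1. Of 62486 gene IDs, 58642 matched a symbol (93.8%).

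The members, gene lists and tests were chosen with earlier results of these data known. Boundaries were named by rule: the 6 farthest from a control boundary, the 4 largest called rises and 4 largest called falls in score, and in the longest control TADs 6 with CTCF in the KO list only and 6 with none. Domains and H3K9me3 edges named beside them, the near and far split and the removal of chromosome 19 were chosen after values were seen. No reference sequence of the build was used, so no genes were placed at boundaries.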

Additional observations from a re-analysis of the deposited data

How the results depend on the processing

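Of 260 values recomputed under other settings, 241 kept their direction and call or stayed within the spread, and 19 moved. With any distance above 0 kb there were 1736 KO-only boundaries, and with more than 40 kb they split 261 control TADs and had 87 of 415 bins lower in KO. With windows of 10 and 40 kb, KO CTCF lay near 33.0% and 69.2% of KO-only boundaries and control CTCF near 19.4% and 48.3%; CTCF in the KO list only was at 19.4% with 10 kb. With the wider 50% of each peak list these shares were 30.6%, 19.03% and 18.3%, and H3K9me3 coverage fell by 7.83 points, from 16.1% to 8.24%. With scores above the 10th percentile in size, 62 of 431 bins changed sign, 52 from B to A and 10 from A to B; this filter removes bins near 0 by construction. Boundary genes higher in KO numbered 3 under upper quartile scaling and 3 with DESeq2, and 3 to 4 when single libraries were left out (3 without control replicate 3 or KO replicate 3). Replicate numbers did not pair the samples (correlations 0.111, 0.0641 and 0.0467 for RNA-seq and −0.0026 for Hi-C); with the replicate block 427 of 576 bins were called, 270 higher and 157 lower, 16 boundary genes changed, 5 higher and 11 lower, and SETDB1 had a log2 fold change of −0.82. Without chromosome 19 the fall in H3K9me3 coverage was 4.43 points. All 21 named boundaries with a scored bin kept their direction and call under every alternative tried for them. TAD and peak lists come as 1 per genotype, so no replicate check of boundaries, CTCF or marks was possible, and the 20 kb grid limits how closely a boundary is placed.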
